A study of Mus musculus with 8 samples.

Results

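Trp63, Sox2, Tfap2a, Klf5, Grhl3, Pitx1, Nkx2-1, Foxa1, Foxa2 and Sox17 encode transcription factors that set squamous or lung and foregut identity, and their RNA was followed over 4 mouse cell lines of lung squamous cell carcinoma (LUSC). These 10 genes were taken by symbol from the 55487 genes measured, and all 10 had enough counts to be tested over the lines. The 10 factors and the gene lists read beside them were chosen with earlier results of these data known. Their shares of calls, set beside those of all genes, are therefore descriptions. The study asked how loss of ACKR3, an atypical chemokine receptor, changes such lines. The lines, in the order used below, are PLA4 and PLA (called the PLA lines) and PL12 and PL1 (the PL lines), each with 2 sequencing libraries of bulk RNA, 8 in all. All 4 derive from genetically engineered mouse models of the disease. The labels give neither the alleles of those mice nor the meaning of the letters, and they do not say whether a line is 1 clone or whether its 2 libraries came from separate cultures. P-values over libraries therefore rest on a spread between libraries that may be technical. In bulk RNA, fewer cells of a type and less RNA per cell cannot be told apart.

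Ackr3 itself served as a check of the line names. It had 0.387 and 0.228 CPM (counts over the library size after TMM scaling) in PLA4 and 0.0488 and 0.0254 CPM in PLA, against 25.3 and 26.3 CPM in PL12 and 86.3 and 33.2 CPM in PL1. The libraries held 48857912 to 142458240 counts, so that 3 counts, used here as the floor of detection, corresponded to 0.0208 to 0.0614 CPM. Between 12016 and 12507 genes reached 1 CPM per library. The 2 libraries of PLA differed by more than 2-fold in 8 genes and those of PL12 in 64, whereas those of PLA4 differed in 1416 and those of PL1 in 1174.

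The squamous factors have known roles in basal cells. TP63 (p63), a relative of p53, keeps the basal cells of stratified epithelia, turning on basal keratins and adhesion genes. SOX2 specifies the oesophagus and proximal airway and is often amplified together with TP63 in human squamous carcinomas, where the proteins bind many of the same enhancers. TFAP2A (AP-2 alpha) and GRHL3 act in epidermal differentiation, KLF5 in proliferating epithelium, and PITX1 in hindlimb and oral ectoderm and, in mouse skin carcinoma, with SOX2 and p63. NKX2-1 specifies lung and thyroid and drives surfactant genes. FOXA1 and FOXA2 open chromatin in endoderm-derived epithelia, and in mouse lung adenocarcinoma without NKX2-1 they turn on gastric genes. SOX17 acts in definitive endoderm and in endothelium.

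Promoter sequences are shown for 4 of the factors whose RNA set PL12 apart from the other lines, Nkx2-1 and Foxa2, which were near the floor elsewhere, and Grhl3 and Sox2, which were low in PL12. The sequences are those of RefSeq on GRCm38.p6 and run from 250 bases before to 50 bases after an annotated start, 5′ to 3′ on the gene's strand. The Nkx2-1 window is chr12:56536859-56537158 (minus strand), that of Foxa2 chr2:148046920-148047219 (minus strand), that of Grhl3 chr4:135573583-135573882 (minus strand) and that of Sox2 chr3:34649745-34650044 (plus strand). Capitals mark matches, on either strand, to short motifs of the SOX, forkhead, NKX2, AP-2, GRHL and KLF families. No p63 or PITX motif was searched.
Nkx2-1: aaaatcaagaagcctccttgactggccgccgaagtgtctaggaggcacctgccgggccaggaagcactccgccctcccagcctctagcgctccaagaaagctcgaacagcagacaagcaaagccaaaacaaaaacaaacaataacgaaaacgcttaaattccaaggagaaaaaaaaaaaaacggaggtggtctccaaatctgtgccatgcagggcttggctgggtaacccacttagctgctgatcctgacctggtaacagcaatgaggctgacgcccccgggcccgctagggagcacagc
Foxa2: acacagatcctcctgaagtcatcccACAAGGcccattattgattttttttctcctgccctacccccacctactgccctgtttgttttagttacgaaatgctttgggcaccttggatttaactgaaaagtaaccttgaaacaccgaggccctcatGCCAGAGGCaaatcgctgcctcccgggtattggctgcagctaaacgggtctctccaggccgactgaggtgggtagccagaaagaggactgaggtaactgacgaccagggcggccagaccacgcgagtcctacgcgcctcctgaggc
Grhl3: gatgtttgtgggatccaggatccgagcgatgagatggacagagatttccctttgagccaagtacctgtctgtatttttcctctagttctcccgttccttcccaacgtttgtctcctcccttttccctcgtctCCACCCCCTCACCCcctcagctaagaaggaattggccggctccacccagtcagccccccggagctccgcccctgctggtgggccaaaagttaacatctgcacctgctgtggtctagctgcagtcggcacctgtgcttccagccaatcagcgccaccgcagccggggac
Sox2: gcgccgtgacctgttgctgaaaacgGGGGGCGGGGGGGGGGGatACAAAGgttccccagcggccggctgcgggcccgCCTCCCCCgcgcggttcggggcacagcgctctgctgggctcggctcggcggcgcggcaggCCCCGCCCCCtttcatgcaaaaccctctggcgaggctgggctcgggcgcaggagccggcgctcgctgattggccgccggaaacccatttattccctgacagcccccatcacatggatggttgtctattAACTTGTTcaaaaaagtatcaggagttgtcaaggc
The motifs searched were CNTTGT for SOX factors, TGTTTNC for forkhead factors, CACTTG for NKX2 factors, GCCNNNGGC for AP-2, AACNNGTT for GRHL and CCNCNCCC for KLF factors. The Nkx2-1 window held none of these letters. The Foxa2 window shown held 1 SOX match at position -225 from the start and 1 AP-2 match at -96. The 2 further Foxa2 windows, not shown, held 5 and 3 KLF, 0 and 2 SOX, and 1 and 0 AP-2 matches. The Grhl3 window held 2 overlapping KLF matches at -118 and -112. The Sox2 window held 1 SOX match at -206, 1 GRHL match at 15 bases past the RefSeq start and 9 KLF matches, several of which overlap each other. That start lies 410 bases before the start of Sox2 in the gene coordinates given below, so the whole window lies before them. Of 32851 mouse promoter windows of the same length, 41.2% held the SOX letters, 20.5% the forkhead, 13.6% the NKX2, 16.6% the AP-2, 4.2% the GRHL and 49.5% the KLF letters. A match is a description of letters and not a bound site. The ratio of observed to expected CpG was 0.559 in the Nkx2-1 window, 0.548 in that of Foxa2, 0.492 in that of Grhl3 and 0.819 in that of Sox2, against a median of 0.384 over all windows. Entries were at hand for 6 of the 10 factors, in 9 windows, the others being those of Foxa1 and Tfap2a and 2 further windows of Foxa2. Trp63, Klf5, Pitx1 and Sox17 are named only.

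PL12 stood apart from the other 3 lines in 7 of the 10 factors, at an adjusted p under 0.05 with the same sign in each comparison. Trp63, Sox2, Grhl3 and Pitx1 were lower in PL12, and Nkx2-1, Foxa2 and Sox17 were higher there. Nkx2-1, Foxa2 and Sox17 passed the filter on low counts through the PL12 libraries alone. Their being called higher there was thus close to fixed in advance, and is given as a description. Over all 18648 genes tested, 12.1% met that rule, 7.01% being lower and 5.14% higher in PL12. Since the 10 factors were chosen with earlier results of these data known, their larger share is a description too. No factor differed with 1 sign in each of the 4 pairs across the families by edgeR, DESeq2 or unadjusted p, whereas 372 genes did by edgeR (1.99%, of which 1.23% higher and 0.767% lower in the PLA lines). Per length, the 6 squamous factors together reached 496 TPM (transcript abundance per length, by which genes can be compared) in PLA4, 401 TPM in PLA, 134 TPM in PL12 and 515 TPM in PL1. Nkx2-1, Foxa2 and Sox17 together reached 0.075 TPM in PLA4, 0 TPM in PLA, 19.0 TPM in PL12 and 0.03 TPM in PL1.

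**Figure D1:**
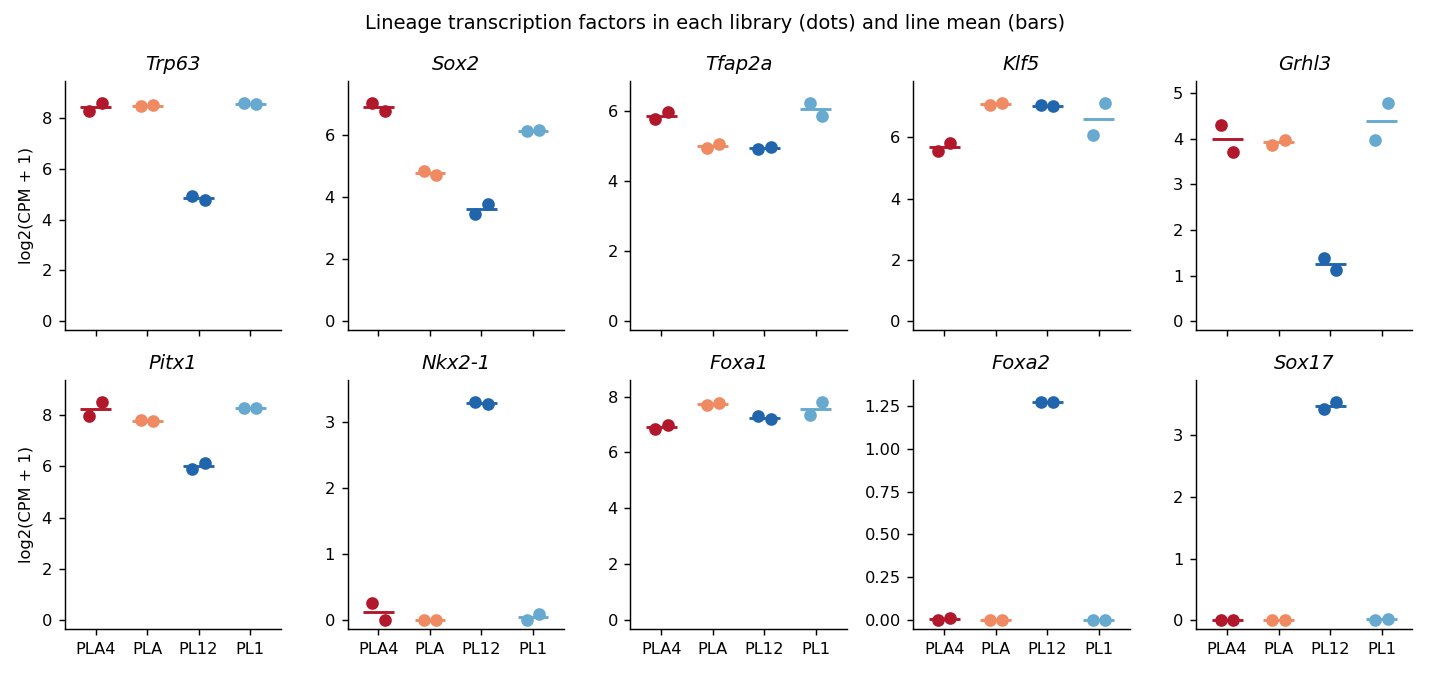
Level of each of the 10 factors as log2(CPM + 1) on its own axis, with a dot per library and a bar for the mean of the 2 libraries of a line, lines running PLA4, PLA, PL12, PL1. The PL12 dots lie below all others for Trp63, Sox2, Grhl3 and Pitx1 and above all others for Nkx2-1, Foxa2 and Sox17.

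Trp63 (ENSMUSG00000022510.14, GRCm38 chr16:25683763-25892102, plus strand) was the clearest case among the squamous factors. It had 306 and 386 CPM in PLA4, 352 and 360.4 CPM in PLA, 29.2 and 26.3 CPM in PL12, and 381 and 373 CPM in PL1. Both PL12 libraries lay far under the other 6, which formed 1 range. Trp63 was 12.8-fold higher in PLA4 than in PL12 (log2 fold change 3.64 ± 0.17 SE, adjusted p = 2.2e-04, edgeR) and 13.1-fold higher in PLA than in PL12 (3.69 ± 0.17, adjusted p = 2.9e-04). It was 13.9-fold lower in PL12 than in PL1 (-3.77 ± 0.17, adjusted p = 3.9e-04). Among PLA4, PLA and PL1 the log2 differences lay between -0.12 and -0.043, with adjusted p of 0.629 to 0.856. Per length, Trp63 stood at 116 ± 19.1 TPM in PLA4, 122 ± 2.08 TPM in PLA, 8.59 ± 0.30 TPM in PL12 and 128 ± 2.13 TPM in PL1 (SD, n = 2 libraries). The values are sums over the gene, so that the full-length and the amino-terminally shortened forms of p63 are not told apart.

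Sox2 (ENSMUSG00000074637.7, chr3:34650405-34652461, plus strand) was the only factor that differed in every pair of lines. It had 131 and 109 CPM in PLA4, 27.6 and 25.2 CPM in PLA, 10.05 and 12.6 CPM in PL12, and 69.3 and 70.1 CPM in PL1. The libraries of no 2 lines overlapped, and the order from high to low was PLA4, PL1, PLA and PL12, which alternates between the families. Sox2 was 10.1-fold higher in PLA4 than in PL12 (3.40 ± 0.17, adjusted p = 2.7e-04) and 2.24-fold higher in PLA than in PL12 (1.22 ± 0.16, adjusted p = 0.0025). Against PL1, it was 1.71-fold higher in PLA4 (0.78 ± 0.16, adjusted p = 0.0353) and 2.64-fold lower in PLA (-1.40 ± 0.16, adjusted p = 0.00252). It was 5.91-fold lower in PL12 than in PL1 (-2.62 ± 0.16, adjusted p = 8.0e-04) and 4.52-fold higher in PLA4 than in PLA (2.18 ± 0.16, adjusted p = 9.2e-04). The call of PLA4 over PL1 was the weakest of these. It passed in 6 of 14 alternative fits. The call was lost without replicate 1 or 2 of PLA, PL1 or PL12 and without PLA4 replicate 1. It was also lost with replicate number fitted as a block. Sox2 lies within Sox2ot, a non-coding RNA gene on the same strand, whose CPM averaged 1.88 in PLA4, 0.211 in PLA, 0.0675 in PL12 and 0.484 in PL1, the same order as that of Sox2 and far lower. No source used here says how reads shared by both genes were divided.

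Grhl3 (ENSMUSG00000037188.7, chr4:135541888-135573630, minus strand), a grainyhead-like factor of the epidermal barrier, had per length the lowest level of the squamous factors. It had 18.9 and 12.01 CPM in PLA4, 13.6 and 14.8 CPM in PLA, 1.62 and 1.17 CPM in PL12, and 14.75 and 26.7 CPM in PL1. The PL12 libraries lay under all others, while the other 3 lines overlapped. Grhl3 was 11.7-fold higher in PLA4 (3.48 ± 0.39, adjusted p = 0.0019) and 10.9-fold higher in PLA (3.36 ± 0.39, adjusted p = 0.00184) than in PL12, and 16.5-fold lower in PL12 than in PL1 (-3.90 ± 0.40, adjusted p = 0.00248). Adjusted p among PLA4, PLA and PL1 was 0.283 to 0.824.

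Pitx1 (ENSMUSG00000021506.7, chr13:55825051-55836192, minus strand), a paired-type homeobox factor, was per length the most abundant of the 10 in every line but PL12, with 221 ± 61.2 TPM in PLA4, 170 ± 3.33 TPM in PLA, 42.5 ± 5.26 TPM in PL12 and 234 ± 14.96 TPM in PL1 (SD, n = 2). In counts it had 250.5 and 364 CPM in PLA4, 223 and 216 CPM in PLA, 58.5 and 69.3 CPM in PL12, and 309 and 310.4 CPM in PL1. The PL12 libraries lay far under all others, and those of PLA lay under those of PLA4 and PL1, by less. Pitx1 was 4.71-fold higher in PLA4 (2.27 ± 0.21, adjusted p = 0.00104) and 3.33-fold higher in PLA (1.78 ± 0.20, adjusted p = 0.00171) than in PL12, and 4.69-fold lower in PL12 than in PL1 (-2.28 ± 0.21, adjusted p = 0.00171). Between PLA and PL1 the log2 difference was -0.50 ± 0.20 (adjusted p = 0.106) and between PLA4 and PLA 0.49 ± 0.20 (adjusted p = 0.11). The antisense gene Gm47071 overlaps Pitx1 and was called lower in PL12 as well, with 2.78 CPM in PLA4, 3.97 CPM in PLA, 0.932 CPM in PL12 and 2.98 CPM in PL1. No source used here says whether the counting used strand, so reads of the 2 genes cannot be told apart where they overlap.

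Tfap2a (ENSMUSG00000021359.16, chr13:40715302-40738376, minus strand) paired the lines across the families. It had 53.8 and 61.7 CPM in PLA4, 29.9 and 32.8 CPM in PLA, 29.5 and 30.5 CPM in PL12, and 74.9 and 57.9 CPM in PL1. PLA4 and PL1 were high and overlapped, and PLA and PL12 were low and overlapped. Tfap2a was 1.92-fold higher in PLA4 than in PL12 (0.95 ± 0.16, adjusted p = 0.00643) and 2.08-fold lower in PLA than in PL1 (-1.08 ± 0.16, adjusted p = 0.00557). It was 2.16-fold lower in PL12 than in PL1 (-1.15 ± 0.16, adjusted p = 0.00588) and 1.85-fold higher in PLA4 than in PLA (0.88 ± 0.16, adjusted p = 0.0104). Between PLA4 and PL1 the log2 difference was -0.20 ± 0.16 (adjusted p = 0.443), and between PLA and PL12 0.066 ± 0.16 (adjusted p = 0.769). Each call was lost in 2 of the 14 alternatives, those that left out a library of 1 line. Without PLA replicate 1 or 2, adjusted p was 0.0625 and 0.0502 for PLA over PL1 and 0.0873 and 0.0683 for PLA4 over PLA. Without PL12 replicate 1 or 2, it was 0.0577 and 0.0506 for PLA4 over PL12 and 0.063 and 0.0589 for PL12 over PL1. The direction of each held, with 1 fewer degree of freedom for the spread. Antisense genes overlap Tfap2a too, at most at 0.825 CPM in any line (Gm47061 in PL1).

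Klf5 (ENSMUSG00000005148.8, chr14:99298691-99315036, plus strand), a Krüppel-like factor of proliferating epithelium, was lowest in PLA4. It had 46.3 and 55.4 CPM in PLA4, 133 and 139 CPM in PLA, 132 and 128 CPM in PL12, and 66.9 and 137 CPM in PL1. The PL1 libraries lay 1.03 apart on the log2 scale, the widest gap among factors with over 3 counts in both libraries of a line, and PL1 replicate 2 reached the level of PLA and PL12 while replicate 1 did not. Klf5 was 2.53-fold lower in PLA4 than in PL12 (-1.36 ± 0.31, adjusted p = 0.0185) and 2.66-fold lower in PLA4 than in PLA (-1.42 ± 0.32, adjusted p = 0.0199). The difference between PLA4 and PL1 did not pass (-1.002 ± 0.31, adjusted p = 0.0965). The first call was lost without PLA4 replicate 1 (adjusted p = 0.0723) and without PL12 replicate 1 or 2 (0.0903 and 0.0832). The second was lost without PLA replicate 1 or 2 (0.103 and 0.111), PLA4 replicate 1 or 2 (0.0675 and 0.0527) and PL12 replicate 1 (0.0501).

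**Figure D2:**
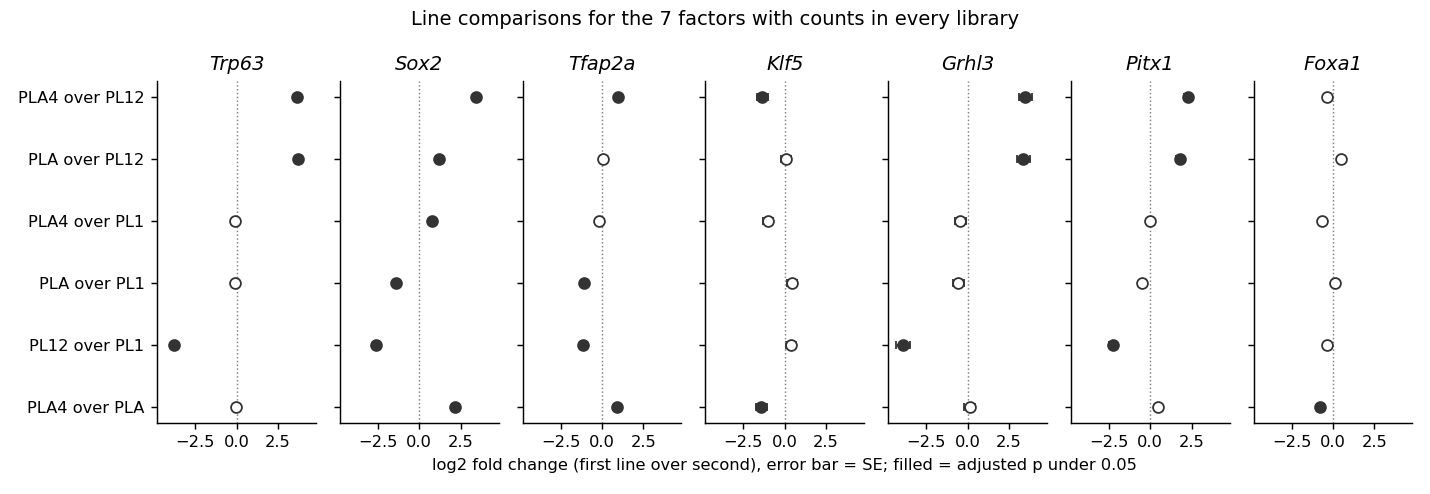
Log2 fold change (first line over second, points with SE bars) for the 7 factors with counts in every library, in each of the 6 pairs of lines, with filled points where adjusted p was under 0.05. Trp63, Grhl3 and Pitx1 are filled only where PL12 is one of the pair, Sox2 is filled in all 6 rows, and Foxa1 only in PLA4 over PLA.

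Foxa1 (ENSMUSG00000035451.7, chr12:57540628-57546916, minus strand) was the lung and foregut factor present in all 4 lines. It had 113 and 126 CPM in PLA4, 205 and 215 CPM in PLA, 157 and 145 CPM in PL12, and 160.3 and 223 CPM in PL1. The PLA4 libraries were lowest, and the PL1 libraries spanned those of PLA. Foxa1 was 1.75-fold lower in PLA4 than in PLA (-0.81 ± 0.18, adjusted p = 0.0186), its only called difference of 6. That call was lost without PLA replicate 1 or 2 (adjusted p = 0.115 and 0.134) and without PLA4 replicate 1 (0.0533). PLA4 over PL1 (-0.68 ± 0.18, adjusted p = 0.0662) and PLA over PL12 (0.48 ± 0.18, adjusted p = 0.0763) did not pass. Per length, Foxa1 at 70.8 ± 2.82 TPM in PL12 exceeded every other factor there, whereas in PLA4, PLA and PL1 both Trp63 and Pitx1 exceeded it.

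Nkx2-1 (ENSMUSG00000001496.15, chr12:56531958-56536908, minus strand), the lung and thyroid homeobox factor, was expressed above the floor in both libraries of PL12 alone. It had 0.194 and 0 CPM in PLA4, 0 CPM in both PLA libraries, 8.86 and 8.685 CPM in PL12, and 0 and 0.0705 CPM in PL1. In counts these were 25 and 0 in PLA4, 0 and 0 in PLA, 433 and 945 in PL12, and 0 and 8 in PL1. The few counts outside PL12 thus fell in 1 library of PLA4 and 1 of PL1. Nkx2-1 was 95.7-fold lower in PLA4 than in PL12 (adjusted p = 0.0398), at least 703-fold lower in PLA than in PL12 (adjusted p = 0.0173; the bound sets 3 counts over both PLA libraries) and 219-fold higher in PL12 than in PL1 (adjusted p = 0.0411). Without a PL12 library, adjusted p was 0.139 or 0.137 for PLA4 over PL12, 0.0762 or 0.0761 for PLA over PL12, and 0.155 or 0.153 for PL12 over PL1. Without a PLA library, it was 0.0585 in both cases for PLA4 over PL12, 0.0878 or 0.0865 for PLA over PL12, and 0.0671 in both cases for PL12 over PL1. Without PL1 replicate 1 or 2, PL12 over PL1 gave 0.104 and 0.0691. By DESeq2, adjusted p was 0.142 for PLA4 over PL12 and 0.0828 for PL12 over PL1, and that of PLA over PL12 passed (0.00434). The folds also rest on single libraries. Without PLA4 replicate 2, the log2 fold change of PLA4 over PL12 was -5.49, against -6.51 with both, and without replicate 1 PLA4 held no counts. Without PL1 replicate 1, that of PL12 over PL1 was 6.93, against 7.82 with both, and without replicate 2 PL1 held no counts. Per length Nkx2-1 reached 5.95 ± 0.014 TPM in PL12 (SD, n = 2), where Trp63 stood at 8.59 TPM.

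Foxa2 (ENSMUSG00000037025.11, chr2:148042877-148046969, minus strand), the forkhead factor that acts beside FOXA1 in endoderm, was low but above the floor in PL12. It had 0 and 0.00692 CPM in PLA4, 0 CPM in both PLA libraries, 1.412 and 1.415 CPM in PL12, and 0 CPM in both PL1 libraries. That is 1 count in PLA4 against 69 and 154 counts in PL12. On that single count, under the floor, Foxa2 was 387-fold lower in PLA4 than in PL12 with a 95% counting interval of 68.8 to 15350 (counting error only, adjusted p = 0.00468). It was at least 114-fold lower in PLA than in PL12 (adjusted p = 0.0037) and at least 94.5-fold higher in PL12 than in PL1 (adjusted p = 0.00726). The last call was lost without PL12 replicate 1 or 2 (adjusted p = 0.0648 and 0.0659).

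Sox17 (ENSMUSG00000025902.13, chr1:4490931-4497354, minus strand), the SOX factor of endoderm and endothelium, had 0 CPM in both libraries of PLA4 and of PLA, 9.72 and 10.6 CPM in PL12, and 0 and 0.0176 CPM in PL1. In counts, PL12 held 475 and 1156 and the other 6 libraries held 2 together, both in PL1 replicate 2. Sox17 was at least 944-fold lower in PLA4 (adjusted p = 0.00249) and at least 832-fold lower in PLA (adjusted p = 0.00227) than in PL12. On the 2 counts of PL1, under the floor, it was 1036-fold higher in PL12 than in PL1 with a counting interval of 286 to 8564 (adjusted p = 0.00509), a call lost without PL12 replicate 1 or 2 (0.0563 and 0.0552). Per length it reached 12.02 ± 1.70 TPM in PL12, above Trp63 and Sox2 there. Since Sox17 is also an endothelial gene, endothelial markers were read beside it. Of 12 such markers, 5 could be tested, and Cldn5 and Tie1 were at 0 in every library. Among those tested, 1, Pecam1, was called in PL12 against each other line, beside 12.1% of all genes. It was lower in PL12 (0.95 TPM in PLA4, 0.54 TPM in PLA, 0.06 TPM in PL12 and 0.355 TPM in PL1). The 12 markers summed to 4.08 and 4.48 TPM in PLA4, 3.74 and 4.22 TPM in PLA, 6.04 and 7.15 TPM in PL12, and 3.04 and 3.40 TPM in PL1. Egfl7 gave 5.79 and 6.81 TPM of the PL12 sums.

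The families were compared on counts summed over the libraries of each line, with the line as the replicate. No gene of 18859 passed in edgeR (0%), and 867 had an unadjusted p under 0.05 (4.6%), while DESeq2 called 354, none of these factors among them. Of the 8 factors that could be tested this way, 0 had an unadjusted p under 0.05 and 4 were higher in the PLA lines. Trp63 averaged 351 ± 7.36 CPM over PLA4 and PLA and 202 ± 247 CPM over PL12 and PL1 (SD over 2 lines), a log2 fold change of 0.82 ± 1.18 (adjusted p = 0.916). Sox2 averaged 73.2 ± 66.2 CPM over the PLA lines and 40.5 ± 41.3 CPM over the PL lines (0.84 ± 1.11, adjusted p = 0.908). Foxa1 averaged 165 ± 64.0 CPM over the PLA lines and 171 ± 28.7 CPM over the PL lines (-0.052 ± 0.40, adjusted p = 0.985). In every factor the 4 PLA libraries overlapped the 4 PL libraries, whereas 15.7% of all genes had libraries of the families that did not overlap. The sign of each of these 8 family differences turned when 1 line was left out. Without PL12, the log2 fold changes of Trp63, Grhl3 and Pitx1 were -0.091, -0.54 and -0.22 and that of Nkx2-1 was 0.20. Without PLA4, those of Sox2, Klf5 and Foxa1 were -0.62, 0.20 and 0.28, and without PLA that of Tfap2a was 0.28.

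Read line by line, the comparisons that share PL12 held most of the calls. Nkx2-1, Foxa2 and Sox17, tested only through their PL12 counts, are among the calls in each of these comparisons. Of the 10 factors, 9 were called in PLA4 over PL12 (5 higher and 4 lower, against 36% of all genes, 19.2% higher and 16.8% lower), 7 in PLA over PL12 (4 higher and 3 lower, against 37.7%, 20.4% higher and 17.3% lower) and 8 in PL12 over PL1 (3 higher and 5 lower, against 23.7%, 11.2% higher and 12.5% lower). In the pairs without PL12 there was 1 higher in PLA4 over PL1, where 8.54% of all genes were called, 4.61% higher and 3.93% lower. There were 2 lower in PLA over PL1 (27.3%, 14.4% higher and 13% lower), and 2 higher and 2 lower in PLA4 over PLA (29%, 14.1% higher and 14.9% lower). These comparisons share lines and are not independent. The calls of Nkx2-1, Foxa2 and Sox17 could hardly turn in sign in another fit, since these genes had few or no counts outside PL12. The 31 calls over 60 comparisons kept their sign in each of 14 alternative fits, and 18 of them passed in all 14.

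The 2 libraries of a line agreed least where the genes at large did. In PL1, replicate 2 over replicate 1 gave a log2 ratio of 1.03 for Klf5, 0.86 for Grhl3, 0.48 for Foxa1 and -0.37 for Tfap2a. In PLA4 it was -0.65 for Grhl3, 0.54 for Pitx1 and 0.33 for Trp63. In PL12 the widest gap was -0.47, for Grhl3 at its low level there, and in PLA no factor was more than 0.14 apart.

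**Figure D3:**
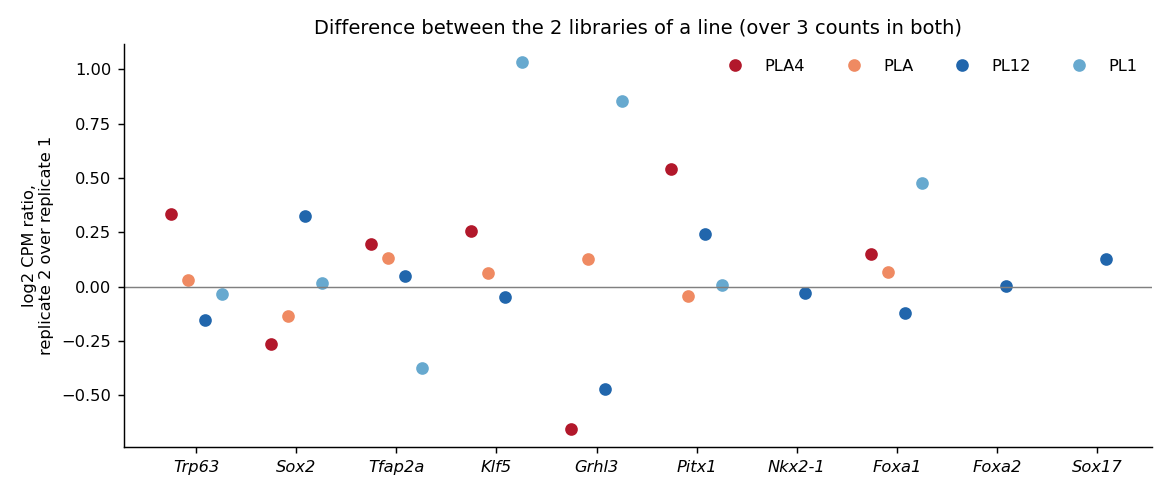
Log2 ratio of CPM, replicate 2 over replicate 1, for each factor with over 3 counts in both libraries of a line, coloured by line. PL1 lies farthest from 0 for Klf5 (1.03) and Grhl3 (0.86), PLA4 for Grhl3 (-0.65), and all PLA points lie within 0.14 of 0.

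Relatives of the 10 factors were read as a fixed list of 27 TP63, SOX, FOXA, AP-2, KLF, GRHL, PITX and NKX2 family members, of which 21 could be tested. Of these, 4 were lower in PL12 than in each other line (Sox9, Sox21, Tfap2c and Grhl2) and 2 were higher (Klf6 and Nkx2-3), a share that may be set beside 7.01% and 5.14% of all genes. Sox9, a distal airway and progenitor factor, averaged 66.3 TPM in PLA4, 47.6 TPM in PLA, 14.1 TPM in PL12 and 43.6 TPM in PL1. Grhl2, the relative of Grhl3 that maintains epithelial junctions, averaged 57.8 TPM in PLA4, 58.0 TPM in PLA, 24.0 TPM in PL12 and 40.9 TPM in PL1, a smaller gap than that of Grhl3. Klf6 averaged 113 TPM in PLA4, 102 TPM in PLA, 230 TPM in PL12 and 84.6 TPM in PL1, and Sox4, the most counted of the list, 156 TPM in PLA4, 129 TPM in PLA, 109 TPM in PL12 and 113 TPM in PL1 with no call. Nkx2-3, an NKX2 factor of gut and spleen mesenchyme, was at 0 TPM in PLA4, 0.005 TPM in PLA, 1.09 TPM in PL12 and 0.02 TPM in PL1. It had 72 and 163 counts in PL12 and at most 5 in any other library. It thus passed the filter on low counts through the PL12 libraries alone, and its call as higher there was close to fixed in advance.

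Basal and squamous genes that p63 and SOX2 are known to activate went the way of Trp63 in PL12. Of 24, all tested, 13 were lower in PL12 than in each other line and 0 were higher (edgeR, beside 7.01% and 5.14% of all genes). The list was chosen with earlier results of these data known, so its shares are given as a description. In PLA4 over PL12, 18 were higher and 0 lower (19.2% and 16.8% of all genes). The median log2 fold change was 2.72, against 0.018 over all genes. In PLA over PL12, 17 were higher and 0 lower (20.4% and 17.3%), with a median of 2.24 against 0.045. In PL12 over PL1, 0 were higher and 15 lower (11.2% and 12.5%), with a median of -2.31 against -0.031. Krt5, a basal keratin, had 3469 and 4350 TPM in PLA4, 4800 and 4791 TPM in PLA, 197 and 222 TPM in PL12, and 3753 and 2013 TPM in PL1. Its partner Krt14 averaged 7086 TPM in PLA4, 3302 TPM in PLA, 718 TPM in PL12 and 5302 TPM in PL1. Both keratins were thus counted in every line, at a lower level in PL12. Only 2 genes of the list, Trim29 and the desmosomal cadherin Dsc3, were called with 1 sign in each of the 4 pairs across the families. Both were higher in the PLA lines, beside 1.23% of all genes. Dsc3 had 2016 and 7733 counts in PLA4, 781 and 754 in PLA, 0 and 0 in PL12, and 2 and 4 in PL1. It passed the filter on low counts through the PLA lines alone, so its call was close to fixed in advance. Trim29 rose by 2.52 to 2.66 on the log2 scale. Of 20 genes of squamous differentiation, 14 could be tested and 1, Ivl, was lower in PL12 than in each other line, beside 7.01% of all genes (56.0 TPM in PLA4, 28.1 TPM in PLA, 5.06 TPM in PL12 and 42.5 TPM in PL1). The list as a whole went both ways. In PLA4 over PL12, 4 were higher and 3 lower, in PLA over PL12 4 and 1, and in PL12 over PL1 4 and 2. Its sums were 895 and 1917 TPM in PLA4, 2255 and 2284 TPM in PLA, 1135 and 1057 TPM in PL12, and 662 and 904 TPM in PL1.

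**Figure D4:**
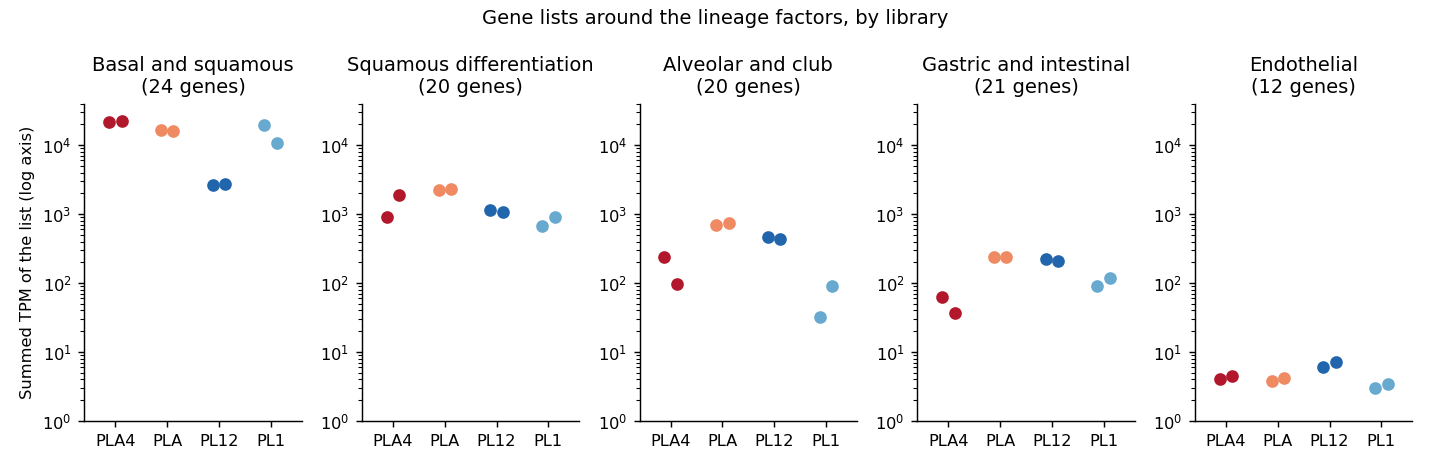
Summed TPM of 5 gene lists in each library (log axis), a dot per library, lines running PLA4, PLA, PL12, PL1. Basal and squamous genes sum to 2677 and 2754 TPM in the PL12 libraries and to 10900 TPM or more in all others, while the other 4 lists do not set PL12 apart by as much.

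Genes that NKX2-1 is known to drive in alveolar and club cells differed among themselves. Of 20, 12 could be tested. By edgeR, 0 were higher in PL12 than in each other line and 1, Cebpa, was lower, beside 5.14% and 7.01% of all genes. In PLA over PL12, 5 were higher and 1 lower (20.4% and 17.3% of all genes). There were 2 higher and 3 lower in PLA4 over PL12 (19.2% and 16.8%), and 2 higher and 2 lower in PL12 over PL1 (11.2% and 12.5%). The list summed to 237 and 95.6 TPM in PLA4, 705 and 736 TPM in PLA, 466 and 438 TPM in PL12, and 31.7 and 91.9 TPM in PL1. Both PL12 libraries were above all others for Sftpd, Muc1, Abca3 and Lpcat1, without passing in every pair. The share of all genes with that order was not counted. Sftpa1, Scgb1a1 and Scgb3a2 were at 0 in every library. Sftpd, a surfactant protein, had 1.42 and 0.95 TPM in PLA4, 12.8 and 13.3 TPM in PLA, 104.3 and 103.7 TPM in PL12, and 0.12 and 10.6 TPM in PL1. The PL12 libraries were highest, and the difference passed in PLA4 over PL12 (-6.47 ± 1.63, adjusted p = 0.0241) but not in PLA over PL12 (-3.05 ± 1.38, adjusted p = 0.128) or PL12 over PL1 (4.37 ± 1.47, adjusted p = 0.0765). Muc1, a membrane mucin, had 9 and 4.96 TPM in PLA4, 89.5 and 98.3 TPM in PLA, 304 and 272 TPM in PL12, and 0.31 and 20.9 TPM in PL1, and passed in PLA4 over PL12 alone of the pairs with PL12 (adjusted p = 0.0388). Abca3, a lamellar body transporter, had 0.83 and 2.10 TPM in PLA4, 11.99 and 12.65 TPM in PLA, 21.9 and 23.3 TPM in PL12, and 3.11 and 3.20 TPM in PL1. It passed in PLA4 over PL12 (adjusted p = 0.00174) and PL12 over PL1 (0.00643) and not in PLA over PL12 (0.102). Cyp2f2, a club cell enzyme, was instead highest in PLA, with 147 and 24.6 TPM in PLA4, 395 and 417 TPM in PLA, 4.66 and 4.47 TPM in PL12, and 0.03 and 1.92 TPM in PL1. In PLA no Nkx2-1 was counted.

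Gastric and intestinal genes, which FOXA factors and HNF4A turn on in endoderm, were read next. Of 21, 17 could be tested, 3 were higher in PL12 than in each other line (Gata4, Onecut2 and Tspan8) and 1 was lower (Gkn1), beside 5.14% and 7.01% of all genes. Tspan8, a tetraspanin of gut epithelium, averaged 0.475 TPM in PLA4, 10.3 TPM in PLA, 113 TPM in PL12 and 0.405 TPM in PL1. Gata4, an endoderm factor, averaged 0.01 TPM in PLA4, 0.075 TPM in PLA, 2.23 TPM in PL12 and 0.135 TPM in PL1. Gkn1, a stomach mucosal peptide, ran the other way with 10.6 TPM in PLA4, 37.9 TPM in PLA, 0.435 TPM in PL12 and 42.0 TPM in PL1. In PLA4 over PL12, 1 of the 17 was higher and 11 lower (19.2% and 16.8% of all genes). There were 2 higher and 3 lower in PLA over PL12 (20.4% and 17.3%), 8 higher and 1 lower in PL12 over PL1 (11.2% and 12.5%), and 1 higher and 9 lower in PLA4 over PLA (14.1% and 14.9%).

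Markers of other cell types were read beside the factors. None of 6 tested ciliated markers of 10 was called in PL12 against each other line by edgeR, beside 12.1% of all genes. Foxj1, the ciliated cell factor, averaged 2.90 TPM in PLA4, 17.4 TPM in PLA, 30.9 TPM in PL12 and 2.03 TPM in PL1. Fibroblast markers summed to 37.0 and 24.8 TPM in PLA4, 9.17 and 8.93 TPM in PLA, 3.82 and 3.21 TPM in PL12, and 20.1 and 118 TPM in PL1. Of 10 tested, 1, Fbln1, was lower in PL12 than in each other line, beside 7.01% of all genes. Immune markers summed to 3.37 to 60.4 TPM per library, with Cd3e and Tyrobp at 0 throughout. Of 5 tested, 2, Csf1r and Ly6g, were higher in PL12 than in each other line, beside 5.14% of all genes. The part of other cells in the levels of the 10 factors was not tested.

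Of the 20 protein-coding genes nearest to the factors, 16 could be tested and 1 was called in PL12 against each other line, beside 12.1% of all genes. This was Ifnlr1, beside Grhl3, with 20.7 CPM in PLA4, 26.3 CPM in PLA, 13.1 CPM in PL12 and 20.9 CPM in PL1. Nkx2-1 and Foxa1 lie 1003720 bases apart on chromosome 12, and in PLA the first had no counts while the second averaged 210.0 CPM. Of the flanks of Nkx2-1, Mbip averaged 13.7 CPM in PLA4, 17.6 CPM in PLA, 13.5 CPM in PL12 and 15.8 CPM in PL1, and Nkx2-9 stood at 0.157 CPM in PLA4, 1.58 CPM in PLA, 1.695 CPM in PL12 and 1.70 CPM in PL1.

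Genes most like each factor were listed from 10294 candidates of at least 5 CPM, by Pearson's r of log2(CPM + 1) over the 8 libraries, as a description of libraries that come from 4 lines. Trp63 was most like Cd80 and Acvr1b (r = 0.997 for both) and Plch2 (0.997). Cd80 averaged 69.4 CPM in PLA4, 80.9 CPM in PLA, 5.43 CPM in PL12 and 81.0 CPM in PL1, so that the likeness is set by PL12. Nkx2-1 was most like Cldn6 (0.999), Pcbd1 (0.999) and Slc9a2 (0.998), and Sox17 most like Cldn6 (0.999), Prl2a1 (0.999) and Wnt7a (0.999). Cldn6, a claudin of embryonic epithelium, averaged 0.162 CPM in PLA4, 0 CPM in PLA, 249 CPM in PL12 and 0.0999 CPM in PL1. Sox2, with its order over 4 lines, was most like Ctdsp1 (0.996), P2rx4 (0.985) and Kcnj15 (0.985). Kcnj15 averaged 244 CPM in PLA4, 48.9 CPM in PLA, 10.3 CPM in PL12 and 152 CPM in PL1, in the order of Sox2. Foxa1 was most like Fut9 (0.995), Tfap2a like Kdm2a (0.990), Klf5 like Phf10 (0.994), Grhl3 like Spice1 (0.992) and Pitx1 like Smyd3 (0.992). Klf5 was also like Tlr4 (0.990) and Fos (0.986), and Fos averaged 15.3 CPM in PLA4, 171 CPM in PLA, 167 CPM in PL12 and 75.0 CPM in PL1. Foxa2 was too low for this list.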

How the data were processed

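RNA was measured in 8 libraries of 4 lines. Per the labels' protocols, total RNA was extracted with the RNeasy Plus Universal Mini kit, turned into cDNA with a SMARTer PCR kit and made into Nextera XT libraries. The tools named, per the submitters' processing notes, are STAR, RSEM, FastQC and DESeq2, with GRCm38 as the build and no versions. No source used here gives the annotation release. The authors deposited expected counts per gene (estimated counts, 14.2% of them not whole) and TPM, which hold levels per length and no depth, per the file headers.

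The expected counts were rounded, scaled by TMM and filtered with filterByExpr (minimum count 10, minimum total count 15), and tested with edgeR 4.0.16 (quasi-likelihood, limma 3.58.1, R 4.3.3). One fit had 1 mean per line over 8 libraries (18648 genes, 4 residual degrees of freedom) and gave the 6 pairs of lines. Another used counts summed per line (18859 genes). P-values were adjusted by Benjamini-Hochberg over all genes tested, with a threshold of 0.05. Standard errors come from the F statistic. Folds are ratios of pooled CPM. Where a line had no count, 3 counts over its 2 libraries gave a bound, and intervals (95%, exact) cover counting error only. DESeq2 1.42.0, other scalings and filters and left-out libraries and lines were tried as alternatives. Coordinates and overlaps come from a GENCODE annotation of GRCm38 that matched 54349 identifiers with their version, all 10 factors included, and 55141 without it.

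The genes named were the 10 factors, for each factor with a mean of at least 1 CPM the 3 genes most like it (plain symbols, mean of 5 CPM or more), the list genes called in all 4 comparisons of the families or otherwise up to 4 with most counts, and Ackr3. Other list genes and neighbours were named after their values were seen. The 10 factors and the lists were chosen with earlier results of these data known.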

Additional observations from a re-analysis of the deposited data

How the results depend on the processing

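No called difference between lines changed sign in 14 alternatives, and 13 of 31 calls were lost in some. For Nkx2-1, Foxa2 and Sox17 the sign could hardly turn, with few or no counts outside PL12. For PLA4 over PL1, 2 factors were called with no filter, 3 by DESeq2 and 0 with the replicate block. Over all genes, that comparison gave 3830 calls by DESeq2 and 547 with the block, the families in all 4 comparisons 861 and 132, and the summed profiles 1 with no filter and 354 by DESeq2. Replicate numbers did not pair the libraries, since deviations of same-numbered libraries correlated by -0.194 to 0.0148, and under the block 6 factors instead of 7 set PL12 apart, as by DESeq2. The one lost in both was Nkx2-1, with adjusted p under the block of 0.0754 for PLA4 over PL12 and 0.0818 for PL12 over PL1.

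With single libraries left out, called factors ranged from 0 to 2 for PLA4 over PL1, 6 to 9 for PLA4 over PL12, 6 to 8 for PLA over PL12, 1 to 3 for PLA over PL1, 4 to 8 for PL12 over PL1, 1 to 4 for PLA4 over PLA and 4 to 7 for PL12 against each line. The 4 that stayed without a PL12 library were Trp63, Sox2, Grhl3 and Pitx1. Called genes ranged from 199 to 2648, 2454 to 7679, 2459 to 8564, 1090 to 6916, 763 to 6128, 1051 to 6618 and 415 to 2850 in the same order, and from 36 to 763 for all 4 family comparisons. Without 1 library each of PL1 and PLA4, which differ most within a line, they were 7378 to 8639, 11390 to 11710, 12497 to 12499, 10315 to 10946, 9927 to 10066, 10733 to 10981, 4935 to 5364 and 2072 to 2446, and called factors 3 to 5, 10, 8, 5, 9, 5 to 6 and 7.

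Family log2 fold changes reversed without PL1 for Tfap2a (0.57) and Foxa1 (0.16). They reversed without PL1 replicate 1 for Tfap2a (0.021, lowest -0.253) and without PL1 replicate 2 for Foxa1 (0.086, and 0.085 also without PLA4 replicate 1, lowest -0.226). Without PL12 the values were -0.091 for Trp63, 0.20 for Nkx2-1, -0.54 for Grhl3 and -0.22 for Pitx1. Without PLA4 they were -0.62 for Sox2, 0.20 for Klf5 and 0.28 for Foxa1, and without PLA 0.28 for Tfap2a. At a pseudocount of 0.1 TPM in place of 1, the log2 ratio of family means was -4.51 for Nkx2-1 (-1.95 at 1), -2.62 for Foxa2 (-0.61) and -5.93 for Sox17 (-2.81). The cause was not tested.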
